A study of Mus musculus with 12 samples.

Results

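The aminoacyl-tRNA synthetases and their scaffold proteins were followed in mouse embryonic fibroblasts that lack the tuberous sclerosis gene Tsc2. The members were the genes whose symbol is that of a synthetase (an amino acid letter followed by ars, ars1, ars2, arsl or arsl2, the subunit names Farsa and Farsb, and Eprs) or of the scaffolds Aimp1 and Aimp2. The array's annotation gave 38 such genes among 18193, and each was read through its brightest probe set over the 12 arrays. By function, 20 are cytosolic enzymes and 16 are enzymes of the mitochondrial matrix, whose names end in 2. Aimp2 and Tarsl2 also end in 2 and were not counted as mitochondrial, since Aimp2 is a scaffold protein like Aimp1 and Tarsl2 is a cytosolic threonyl enzyme. Gars and Kars serve both compartments and were counted with the cytosolic enzymes.

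All 4 groups were TSC2-/- fibroblasts, and the arrays held no cells with Tsc2 intact. In the drug experiment, 3 cultures received 20 nM rapamycin, an inhibitor of the kinase mTOR, for 14 h, and 3 received the DMSO vehicle for the same time. In the virus experiment, 3 confluent cultures were infected for 10 h with adenovirus carrying PGC-1alpha, a transcriptional coactivator of mitochondrial genes, and 3 with adenovirus carrying GFP, and all were harvested 14 h after the virus was replaced by fresh medium. The drug experiment asks what mTOR inhibition does to the synthetase messages, and the virus experiment asks what PGC-1alpha does to them.

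An aminoacyl-tRNA synthetase joins an amino acid to its tRNA, the step that gives the genetic code its meaning. Cytosol and mitochondrion make proteins separately, and for most amino acids nuclear genes encode one enzyme for each compartment. Several cytosolic enzymes are held together with Aimp1 and Aimp2 in the multisynthetase complex. The transcription factor ATF4, whose output mTOR complex 1 is known to promote, activates many cytosolic synthetase genes through C/EBP-ATF response elements.

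Array medians lay between 77.5 and 81 on the deposited intensity scale, and replicate arrays correlated at 0.997 or above across probe sets. Of the fibroblast markers, Col1a1, Col1a2, Col3a1, Vim and Fn1 averaged 8847 to 13813 in the groups of the drug experiment, while Pdgfrb averaged 222 to 352 and Thy1 277 to 319. The macrophage, endothelial and adipocyte markers averaged at most 247, 199 and 113 in any group, and the muscle markers at most 288. Of the epithelial markers, Epcam averaged 655 to 771 and Krt18 388 to 570.5. Rapamycin raised 2 of 4 epithelial markers (Krt18 by 0.56 and Cdh1 by 0.24 on the log2 scale), 1 of 5 macrophage markers (Cd68, 0.29) and the fibroblast markers Fn1 (0.20) and Pdgfrb (0.67), and lowered the muscle marker Des (-0.23), while PGC-1alpha moved no marker past the threshold. Of all genes, rapamycin raised 11.3% and lowered 18.0%. The part of the marker changes in the results was not tested. The Tsc2 probe set read 198 ± 17.7 in rapamycin cells and 262 ± 15.6 in vehicle cells (SD, n = 3 each), and with no Tsc2-intact cells beside them it does not check the genotype. In bulk RNA, fewer cells of one kind and less message per cell cannot be told apart. The 3' to 5' ratio of the Gapdh probe sets, a measure of RNA integrity, was 0.807 to 0.826 in the rapamycin arrays, against 0.84 to 0.861 in the vehicle arrays. It was 0.894 to 0.905 in the PGC-1alpha arrays, against 0.865 to 0.879 in the GFP arrays, so the groups were apart in both experiments, and its part in the results was not tested.

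Rapamycin lowered most of the cytosolic enzymes and fewer of the mitochondrial ones. Of 20 cytosolic enzymes, 18 fell, 1 rose and 1 passed in neither direction (limma, Benjamini-Hochberg adjusted p under 0.05 over 45037 probe sets), with a median log2 change of -0.50 and a range of -0.85 to 0.40. Of 16 mitochondrial enzymes, 6 fell and none rose, with a median of -0.12. Both scaffold genes fell. Over all genes, 18.0% were lowered and 11.3% were raised, with a median of -0.01. Bright genes were called more often: 31.5% of all genes that were as bright as the cytosolic enzymes were lowered, and 14.9% of those as bright as the mitochondrial enzymes, with 16.4% and 11.2% raised. As bright means between the dimmest and brightest enzyme of the class, 145 to 3080 for cytosolic and 24.6 to 579 for mitochondrial enzymes. The class medians were 1290 and 199, against 140 for all genes, so each set is a range and not a match in brightness. All 3 rapamycin arrays lay below all 3 vehicle arrays for 19 cytosolic enzymes, 8 mitochondrial enzymes and both scaffolds, where 24.6% of all genes did so, and above for Qars, where 17.5% of all genes did so. The mean log2 intensity of the spiked bacterial control RNAs was 10.62 to 10.83 in the rapamycin arrays, against 10.5 to 10.6 in the vehicle arrays. Scaled to those controls, the arrays gave medians of -0.69 for the cytosolic and -0.30 for the mitochondrial enzymes, with the median of all genes at -0.20. On that scale 19 of 20 cytosolic and 13 of 16 mitochondrial enzymes were lowered, where 46.1% of all genes were, so the counts of the classes lay closer together than on the deposited scale.

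**Figure D1:**
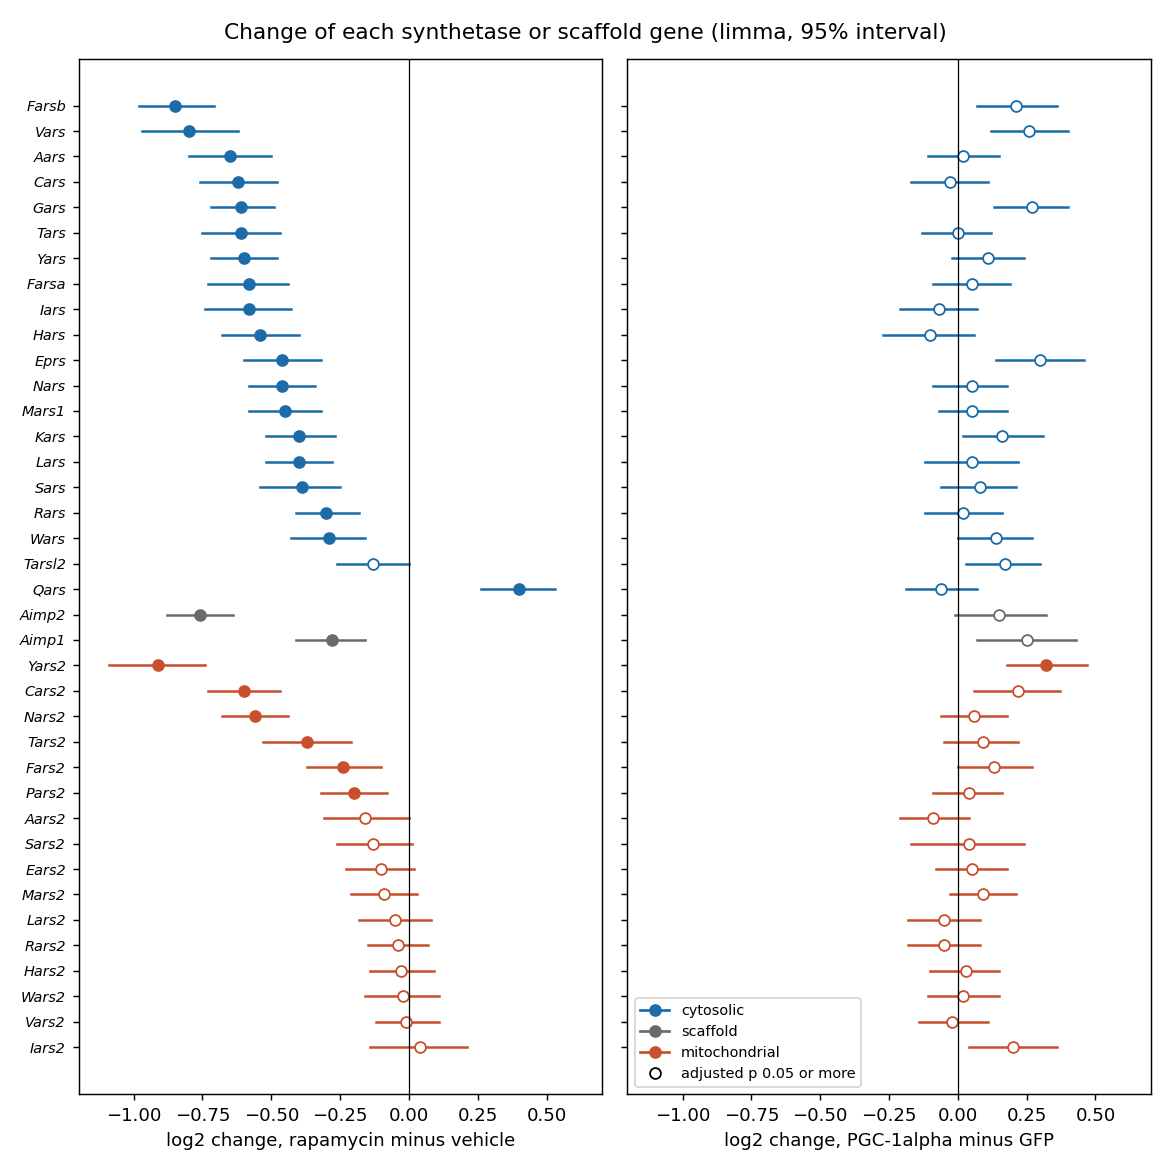
Log2 change of each synthetase or scaffold gene on the horizontal axis, rapamycin minus vehicle on the left and PGC-1alpha minus GFP on the right, with 95% intervals from limma on 3 arrays a group. Filled points passed an adjusted p of 0.05. On the left 18 cytosolic enzymes, both scaffolds and 6 mitochondrial enzymes are filled below 0 and Qars alone is filled above it, while on the right only Yars2 is filled.

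**Figure D2:**
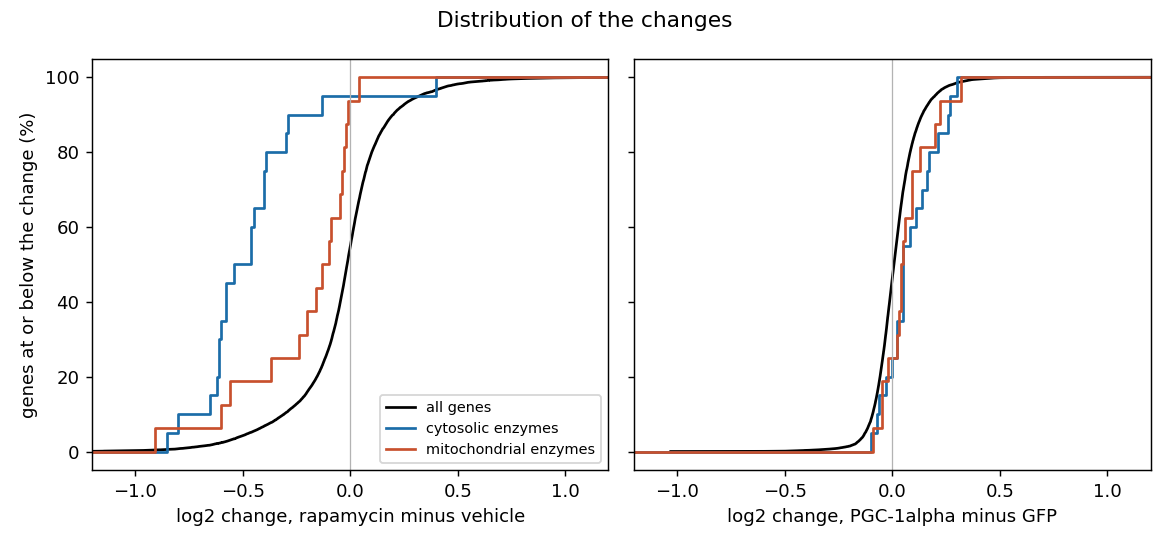
Share of genes at or below each log2 change, in percent, for all 18193 genes and for the 20 cytosolic and 16 mitochondrial enzymes, with the axis ending at 1.2 in either direction. After rapamycin the cytosolic median is -0.50 and the mitochondrial one -0.12, while the curves cross at both ends, where Yars2 is at -0.91 and Qars at 0.40, and in the virus experiment the medians are 0.05 and 0.04.

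Among the cytosolic enzymes, the phenylalanyl-tRNA synthetase beta subunit Farsb fell furthest. Farsb had intensities of 493, 537 and 556 in the rapamycin arrays, against 974, 986 and 894 in the vehicle arrays. This was a log2 change of -0.85 (SE 0.06, 1.80-fold lower, limma adjusted p = 1e-06), and all 4 of its probe sets were lowered. Farsa, the alpha subunit of the same enzyme, averaged 571 ± 46.1 in rapamycin cells, against 855 ± 46.8 in vehicle cells (SD, n = 3 each), a change of -0.58, but only 1 of its 4 probe sets was lowered. Vars, which charges valine tRNA, had intensities of 749.8, 934 and 790.2 in the rapamycin arrays, against 1333, 1416 and 1539 in the vehicle arrays. Its change was -0.80 (SE 0.08, adjusted p = 9.5e-06 by limma), and its groups were apart by a wide gap.

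Aars, the alanyl-tRNA synthetase, had intensities of 1683, 2008 and 1754 in the rapamycin arrays, against 2894, 2742 and 2880.2 in the vehicle arrays. Rapamycin replicate 2 was the highest of the treated arrays there and still below every vehicle array, and the change was -0.65 (SE 0.07, limma adjusted p = 1.2e-05). Cars, the cysteinyl-tRNA synthetase, gave 330.3, 389.6 and 357 in the rapamycin arrays, against 560.0, 563 and 531 in the vehicle arrays. Tars, the threonyl-tRNA synthetase, gave 835, 981 and 866 in the rapamycin arrays, against 1399.6, 1387 and 1300.1 in the vehicle arrays. Both again had their highest treated value in rapamycin replicate 2, with changes of -0.62 and -0.61 (SE 0.07 and 0.07, limma adjusted p = 1.3e-05 and 1.7e-05). Gars, the glycyl-tRNA synthetase of both compartments, gave 2292, 2414 and 2402 in the rapamycin arrays, against 3662, 3585 and 3563 in the vehicle arrays. Yars, the tyrosyl-tRNA synthetase, gave 447, 482 and 472 in the rapamycin arrays, against 728, 688 and 701 in the vehicle arrays. The replicates of these lay close together, with changes of -0.61 for Gars (SE 0.05, limma adjusted p = 2.9e-06) and -0.60 for Yars (SE 0.06, limma adjusted p = 4.8e-06).

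The other lowered cytosolic enzymes outside the multisynthetase complex were Hars (-0.54), Nars (-0.46), Sars (-0.39) and Wars (-0.29), which charge the tRNAs of histidine, asparagine, serine and tryptophan. Wars was lowered on all 4 of its probe sets. Tarsl2, the second cytosolic threonyl enzyme, averaged 134 ± 6.5 in rapamycin cells, against 147 ± 5.6 in vehicle cells (SD, n = 3 each). Its groups did not overlap, but its change of -0.13 missed the threshold (limma adjusted p = 0.13). Across the arrays the spread was shared between genes: rapamycin replicate 1 was the lowest treated array for 28 of the 38 members and rapamycin replicate 2 the highest for 28.

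**Figure D3:**
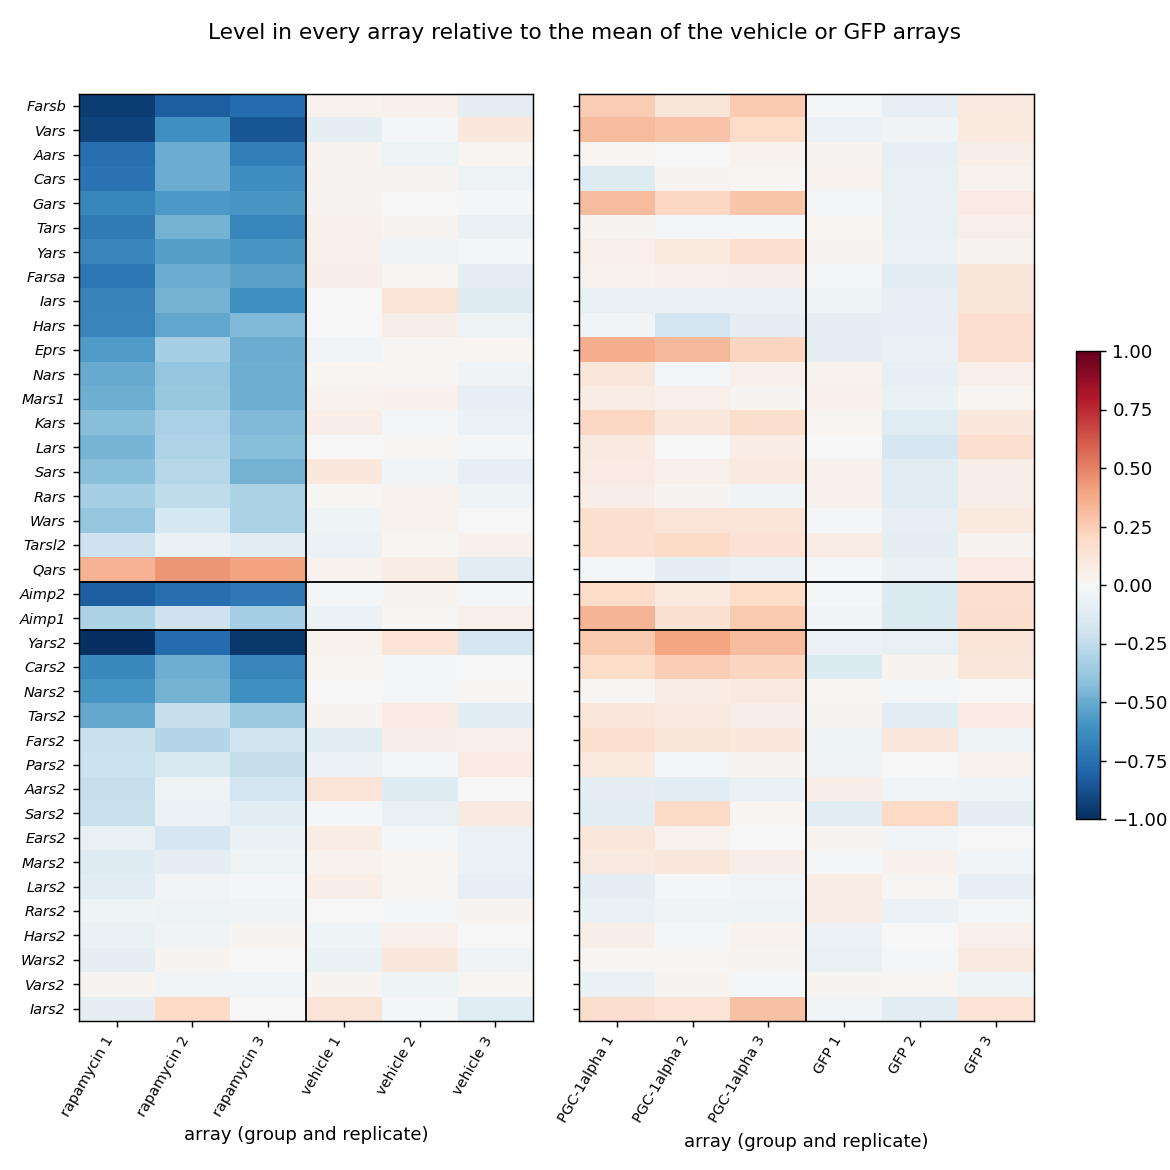
Log2 intensity of each gene (down the page, cytosolic enzymes, then scaffolds, then mitochondrial enzymes) in each array, minus the mean of that experiment's vehicle or GFP arrays; blue is lower and red is higher. The 3 rapamycin columns are blue for most cytosolic enzymes and red for Qars, and within the treated group rapamycin replicate 2 is the palest.

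The members that belong to the multisynthetase complex also fell, with a single exception among 9. Genes of the complex that are not members were not counted here. Its enzymes Iars (-0.58), Eprs (-0.46), Mars1 (-0.45), Kars (-0.40), Lars (-0.40) and Rars (-0.30) were lowered, and their class, Qars included, had a median of -0.40. The 13 cytosolic enzymes outside the complex had a median of -0.60, with 12 of them lowered. Aimp2, a scaffold of the complex, had intensities of 899, 946 and 972 in the rapamycin arrays, against 1577, 1623 and 1574 in the vehicle arrays. This was a change of -0.76 (SE 0.05, limma adjusted p = 7.2e-07). The other scaffold, Aimp1, averaged 1330.5 ± 63.8 in rapamycin cells, against 1618 ± 62.5 in vehicle cells (SD, n = 3 each), a change of -0.28 (limma adjusted p = 0.0024). For Eprs, the bifunctional enzyme of glutamate and proline, 2 of 4 probe sets were lowered.

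Qars, the glutaminyl-tRNA synthetase of the complex, went the other way. Its intensities were 1593, 1709 and 1656 in the rapamycin arrays, against 1288, 1318 and 1165 in the vehicle arrays. Every rapamycin array was above every vehicle array, by 1.32-fold on average (log2 change 0.40, SE 0.06, limma adjusted p = 0.00029), and 3 of its 4 probe sets were raised. It stayed raised, between 0.21 and 0.48, under all 16 alternative settings. The probe set read here carries the suffix that marks possible cross-hybridization. Mammalian mitochondria make glutaminyl-tRNA through an amidotransferase instead of a synthetase, and of its subunits Qrsl1 was lowered, at -0.54, while Gatb (0.02) and Gatc (-0.15) were not called.

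Of the 16 mitochondrial enzymes 10 did not pass the threshold on the deposited scale, and the 6 that fell included the deepest change of all 38 members. Yars2, the mitochondrial tyrosyl-tRNA synthetase, had intensities of 134, 156 and 136 in the rapamycin arrays, against 273, 293 and 237 in the vehicle arrays. This was 1.88-fold lower (log2 change -0.91, SE 0.08, limma adjusted p = 3.6e-06), with a wide gap between the groups. Cars2, the mitochondrial cysteinyl enzyme, gave 119, 134 and 118 in the rapamycin arrays, against 189.9, 184 and 187 in the vehicle arrays. Its change was -0.60 (SE 0.06, limma adjusted p = 8.5e-06) on the brightest of 3 probe sets, a second one also fell, and the third rose by 0.19 (limma adjusted p = 0.031), so its probe sets disagreed. Nars2, the mitochondrial asparaginyl enzyme, gave 60.3, 65.1 and 59.1 in the rapamycin arrays, against 90.5, 89.7 and 91.4 in the vehicle arrays. It fell by 0.56 on the log2 scale although its probe set was among the dimmest of the class. Its second probe set, dimmer still, changed by -0.02 and was not called.

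Tars2 (-0.37), Fars2 (-0.24) and Pars2 (-0.20), the mitochondrial enzymes of threonine, phenylalanine and proline, fell less (limma adjusted p = 0.0023, 0.011 and 0.019). The other 10 did not pass, with changes from -0.16 in Aars2 to 0.04 in Iars2, and with scaling to the spiked controls 7 of them were lowered (Aars2, Ears2, Hars2, Lars2, Mars2, Rars2 and Sars2). Rars2, the brightest of the mitochondrial enzymes, averaged 571 ± 3.3 in rapamycin cells, against 589 ± 10.2 in vehicle cells (SD, n = 3 each), a change of -0.04. Lars2 changed by -0.05 on its brightest probe set, while 1 dimmer probe set of 3 was lowered by 0.24. For Fars2 a second, much dimmer probe set changed by -0.02 and was not called. Mars2 averaged 20.3 ± 0.6 in rapamycin cells, against 21.6 ± 0.7 in vehicle cells (SD, n = 3 each), near the lowest intensities on the arrays, and its groups overlapped.

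Set amino acid by amino acid, 18 pairs of a cytosolic and a mitochondrial enzyme covered 16 amino acids, with Farsa and Farsb each paired with Fars2, Eprs paired with Ears2 and Pars2, and Tars and Tarsl2 each paired with Tars2. The cytosolic enzyme had the lower change in 15 pairs, and in 10 of these the 95% intervals of the changes did not touch. The largest gap was that of valine. Vars2 gave 208, 199.8 and 200.4 in the rapamycin arrays, against 208, 198 and 206 in the vehicle arrays, so its groups overlapped fully (change -0.01), against -0.80 for Vars. The isoleucine pair was next.

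Iars gave 940.2, 1073 and 977 in the rapamycin arrays, against 1492, 1633 and 1363 in the vehicle arrays, a change of -0.58. Iars2 gave 144, 176 and 153 in the rapamycin arrays, against 168, 152 and 141 in the vehicle arrays, a change of 0.04 with overlapping groups. The treated and vehicle arrays of Iars were thus apart and those of Iars2 were not. For histidine, Hars gave 1108, 1224 and 1292 in the rapamycin arrays, against 1745, 1822 and 1688 in the vehicle arrays, a change of -0.54. Hars2 gave 225, 229.9 and 239 in the rapamycin arrays, against 228, 244 and 235 in the vehicle arrays, a change of -0.03. For alanine, Aars2 gave 318, 359.7 and 327 in the rapamycin arrays, against 408, 342 and 373 in the vehicle arrays, a change of -0.16, against -0.65 in Aars. The groups of Hars2 and Aars2 overlapped. Tyrosine was the reverse case: Yars2 fell further than Yars, -0.91 against -0.60, with intervals apart. Nars, the cytosolic asparaginyl enzyme, gave 2169, 2356 and 2199.5 in the rapamycin arrays, against 3119, 3109.7 and 3009.7 in the vehicle arrays. For asparagine and cysteine the changes were -0.56 in Nars2 and -0.46 in Nars, and -0.60 in Cars2 and -0.62 in Cars, with intervals that touched. On the deposited scale the cytosolic enzyme alone was lowered in 10 pairs and both were in 7, and Tarsl2 with Tars2 was the remaining pair. With scaling to the spiked controls Aars2, Ears2, Hars2, Lars2, Mars2, Rars2 and Sars2, which belong to those 10 pairs, were lowered as well. Intensities of different probe sets cannot be set against each other, so the pairs compare changes and not levels, and no test was made between probe sets.

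**Figure D4:**
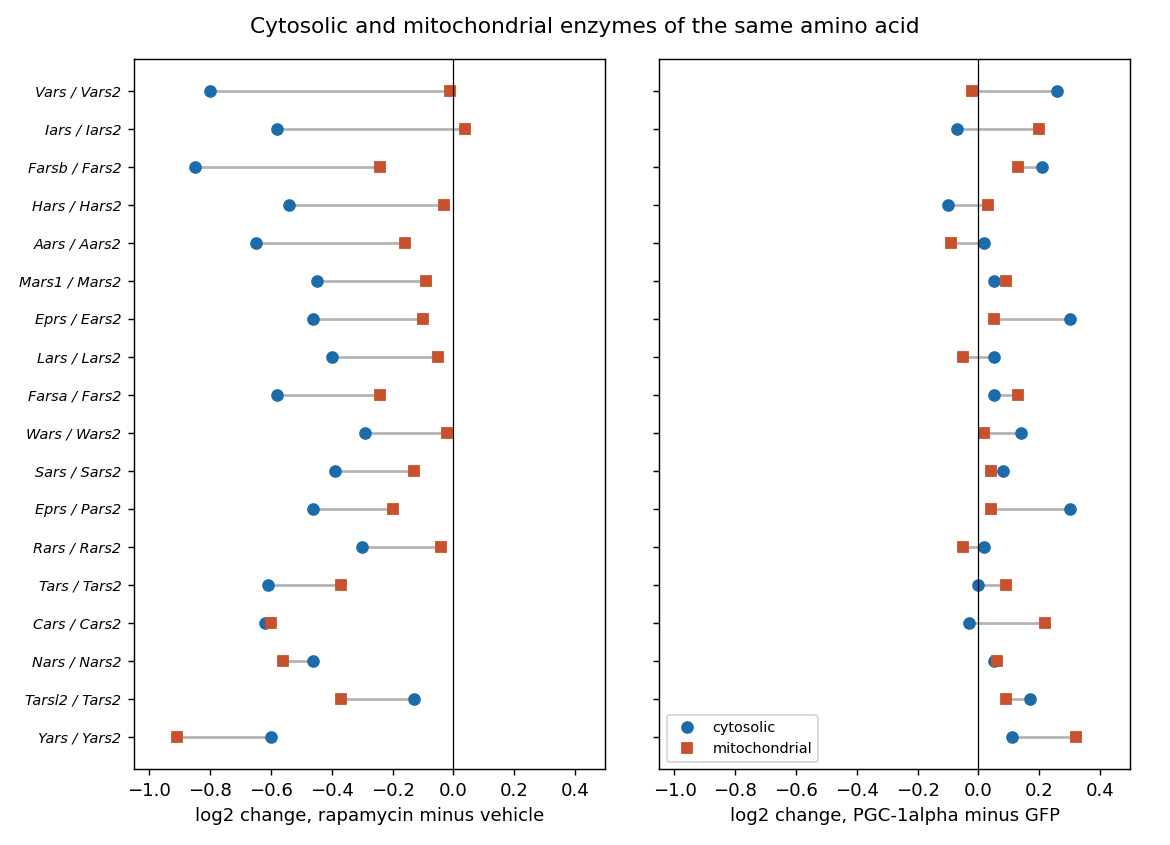
Log2 change of the cytosolic (circle) and mitochondrial (square) enzyme of each amino acid, joined by a line, for rapamycin minus vehicle on the left and PGC-1alpha minus GFP on the right. On the left the circle lies to the left of the square in 15 of 18 pairs, with the widest line for Vars and Vars2, and on the right in 8 of 18.

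Promoters from RefSeq on build GRCm38.p6, from 250 bases before to 50 after the start of transcription, were matched for 29 members, namely 13 cytosolic enzymes, 14 mitochondrial enzymes and both scaffolds. The C/EBP-ATF response element was searched as TGATGNAA, which reads TTNCATCA from the other strand. It was found in 5 of the 13 cytosolic promoters and in none of the 14 mitochondrial ones, and 3.97% of 32851 mouse promoters of this length hold it. The sequences below are those 5 promoters, with Qars as the enzyme that rose and Yars2 as the member that fell furthest, each from 120 bases before the start to the base 29 from it, 5′ to 3′ on the gene's strand. Capitals mark the response element, except in Yars2, where they mark AAGATGGC, the core of the site for the transcription factor YY1, and Qars holds no response element.
Aars: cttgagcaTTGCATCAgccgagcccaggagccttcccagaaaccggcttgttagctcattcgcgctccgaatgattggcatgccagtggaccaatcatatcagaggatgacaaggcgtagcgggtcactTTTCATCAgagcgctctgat
Gars: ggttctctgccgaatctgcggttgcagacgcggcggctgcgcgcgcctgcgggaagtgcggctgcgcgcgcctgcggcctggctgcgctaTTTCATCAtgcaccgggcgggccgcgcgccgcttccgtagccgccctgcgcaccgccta
Tars: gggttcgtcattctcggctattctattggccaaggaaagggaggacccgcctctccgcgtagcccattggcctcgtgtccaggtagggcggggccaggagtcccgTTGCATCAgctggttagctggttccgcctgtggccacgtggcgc
Iars: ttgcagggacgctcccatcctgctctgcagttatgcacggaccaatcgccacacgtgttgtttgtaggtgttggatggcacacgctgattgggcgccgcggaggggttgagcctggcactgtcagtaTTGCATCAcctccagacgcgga
Yars: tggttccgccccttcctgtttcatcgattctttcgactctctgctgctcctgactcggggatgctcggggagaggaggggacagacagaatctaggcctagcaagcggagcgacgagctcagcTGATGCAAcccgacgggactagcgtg
Qars: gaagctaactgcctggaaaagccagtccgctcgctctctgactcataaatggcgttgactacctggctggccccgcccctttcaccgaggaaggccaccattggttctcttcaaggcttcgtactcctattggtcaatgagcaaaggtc
Yars2: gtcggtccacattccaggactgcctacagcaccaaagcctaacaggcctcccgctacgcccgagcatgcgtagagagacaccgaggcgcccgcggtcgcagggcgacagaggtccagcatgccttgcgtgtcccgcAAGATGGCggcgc

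The stretches are chr8:111033722-111033870 on the plus strand for Aars, chr6:55037881-55038029 on the plus strand for Gars, chr15:11399630-11399778 on the minus strand for Tars, chr13:49682010-49682158 on the plus strand for Iars, chr4:129189783-129189931 on the plus strand for Yars, chr9:108507885-108508033 on the plus strand for Qars and chr16:16302845-16302993 on the plus strand for Yars2. Aars holds the element at 2 places, and in Gars and Tars it lies just before the start. The 5 enzymes with the element changed by -0.65 to -0.58 after rapamycin, with a median of -0.61. The 8 other cytosolic enzymes with a promoter sequence held no element in the stretch searched. They changed by -0.85 to 0.40, with a median of -0.42, so that Farsb, which fell furthest, and Qars, which rose, are both among them. Cars, Hars, Lars, Nars, Rars, Vars and Wars had no promoter sequence and are in neither set.

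The YY1 letters AAGATGGC were found on either strand in the promoters of Yars2, Aars2 and Wars2 and, of the cytosolic enzymes, in that of Farsa, where 2.75% of all promoters hold them. Of these, Yars2 and Farsa were lowered by rapamycin, with changes of -0.91 and -0.58, and Aars2 and Wars2 were not called, at -0.16 and -0.02. The letters of the factor NRF1, GCGC, any 2 bases and GCGC, were found in 3 cytosolic and 2 mitochondrial promoters, against 6.23% of all promoters, and TNAAGGTCA of the estrogen-related receptors, partners of PGC-1alpha, in no member, against 1.28%. A match is a string of letters and not a measured binding site.

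In the virus experiment Ppargc1a, the gene delivered, averaged 2344 ± 190.6 in PGC-1alpha cells and 87.8 ± 11.8 in GFP cells (SD, n = 3 each). Of the 38 members, 1 was raised and none was lowered (limma, adjusted p under 0.05), where 1.41% of all genes were raised and 0.594% lowered. Of the genes as bright as the cytosolic enzymes 2.59% were raised and 1.11% lowered, and of those as bright as the mitochondrial enzymes 1.08% and 0.481%. At an unadjusted p under 0.05, 11 members were above GFP and 0 below, where 8.88% of all genes were above and 3.31% below. The medians were 0.05 for cytosolic enzymes, 0.04 for mitochondrial enzymes and 0.01 for all genes. All PGC-1alpha arrays lay above all GFP arrays for 8 cytosolic and 4 mitochondrial enzymes, where 10.1% of all genes did so, and all lay below for Aars2 alone, where 5.72% of all genes did so.

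The raised gene was Yars2, whose intensities were 259, 284 and 269 in the PGC-1alpha arrays, against 208, 206 and 236 in the GFP arrays. Its change was 0.32 (SE 0.07, limma adjusted p = 0.032), 1.25-fold, with no overlap between the groups, but its second probe set changed by 0.05 only. GFP replicate 3 was the highest of the GFP arrays for Yars2. The call was lost in 8 of 16 alternative settings, with changes from 0.19 to 0.49.

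Cytosolic enzymes came close to the threshold without passing it. Gars gave 3685, 3421 and 3591 in the PGC-1alpha arrays, against 2940.5, 2810.3 and 3135 in the GFP arrays, a change of 0.27 (limma adjusted p = 0.051). Eprs gave 1685, 1639 and 1519.5 in the PGC-1alpha arrays, against 1225, 1253 and 1464 in the GFP arrays, a change of 0.30 (limma adjusted p = 0.071). Its other probe sets did not share this: an equally bright one changed by -0.03, with overlapping groups, and a dimmer one by -0.17. Vars gave 1372, 1342 and 1250.5 in the PGC-1alpha arrays, against 1058, 1074 and 1181 in the GFP arrays, a change of 0.26 (limma adjusted p = 0.071). On the probe sets read for these 3 genes the groups did not overlap. GFP replicate 3 was the highest GFP array for 25 of the 38 members, and the count rests on it: without GFP replicate 3, 9 members were raised, namely Yars2 (0.39), Eprs (0.38), Aimp1 (0.34), Gars (0.31), Vars (0.31), Cars2 (0.27), Iars2 (0.27), Farsb (0.26) and Aimp2 (0.23), where 6.60% of all genes were raised in the same fit. Without any other single array, none was raised. Set by amino acid, the cytosolic enzyme had the lower change in 8 of 18 pairs, and only for Vars and Vars2 were the intervals apart, at 0.26 and -0.02.

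The changes in the drug and virus experiments were tested against each other in a fit over all 12 arrays. The rapamycin change was lower than the PGC-1alpha change for 27 members and higher for 1, Qars (limma, adjusted p under 0.05), where 16.5% of all genes were lower and 7.59% higher. All 20 cytosolic enzymes, both scaffolds and 6 mitochondrial enzymes were among the 28. The difference was largest for Yars2, at -1.24 (SE 0.11, limma adjusted p = 3.5e-07), the gene that was lowered in one experiment and raised in the other. Farsb and Vars followed at -1.06 each. With scaling to the spiked controls Qars was no longer called, and 34 members had the lower change after rapamycin. On that scale the median difference of all genes was itself -0.38, against -0.02 on the deposited scale. The share of all genes called on that scale is not given here, so these counts are not a result about the synthetases alone. Qars also lost its call when probe sets with suffixes marking possible cross-hybridization were left out. Tarsl2, called in neither experiment alone, differed between them (limma adjusted p = 0.016). For the other 10 mitochondrial enzymes no difference passed the threshold on the deposited scale. With spike scaling 13 of 16 mitochondrial enzymes had the lower change after rapamycin. The experiments were normalized apart, and drug and virus also differ in the culture's handling, so this contrast sets one response beside the other and no more.

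**Figure D5:**
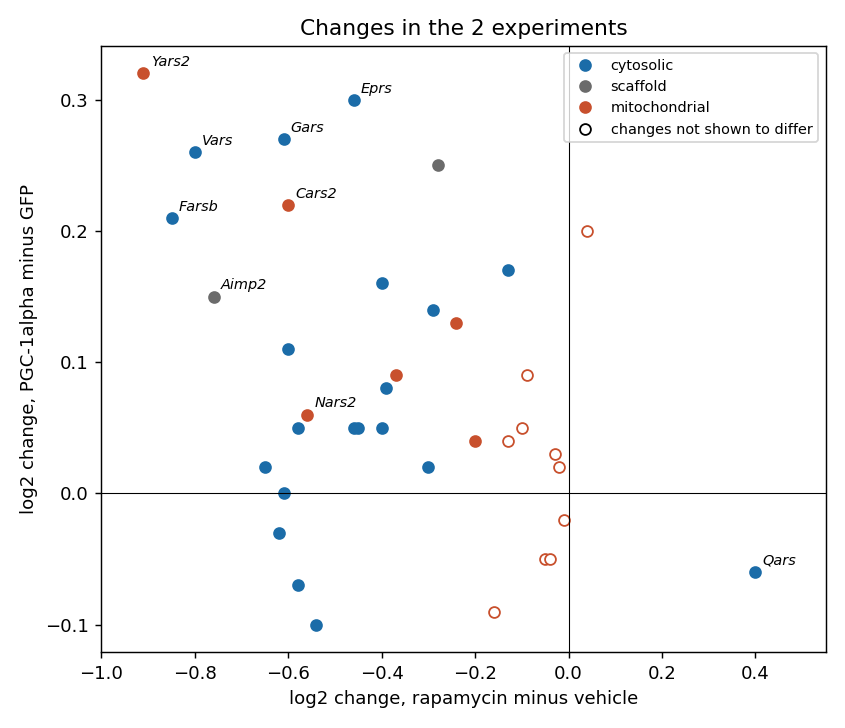
Log2 change after rapamycin (horizontal) against log2 change with PGC-1alpha (vertical), 1 point a gene. Filled points are the 28 genes whose changes differed between the experiments, with Yars2 at -0.91 and 0.32 in the upper left and Qars at 0.40 on the far right.

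Genes around the synthetases were counted in the same fit. Atf4, the transcription factor that activates synthetase genes, averaged 2457 in rapamycin cells and 3625 in vehicle cells (log2 change -0.56, SE 0.05, limma adjusted p = 6e-06), and with PGC-1alpha it changed by 0.01. Rapamycin lowered 28 of 29 measured genes of ATF4 and its targets other than synthetases, where 18.0% of all genes were lowered. None of the 29 was raised, and their median was -0.58. The largest changes were in Ddit4, an inhibitor of mTOR (-1.88), the serine synthesis enzymes Psph (-1.44) and Psat1 (-1.21), and Cth, which makes cysteine (-1.34). With PGC-1alpha, 1 of the 29 was raised, the transcription factor Cebpb at 0.33, where 1.41% of all genes were raised.

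Of 28 measured genes of tRNA maturation, 19 were lowered by rapamycin, where 18.0% of all genes were. None of the 28 was raised, and their median was -0.40. The largest changes were in subunits of the RNase P and RNase MRP enzymes, which trim precursor RNAs, namely Rpp25 (-1.13), Rpp30 (-0.98), Rpp40 (-0.96) and Pop5 (-0.91). PGC-1alpha raised 1 of the 28, Mto1, which modifies mitochondrial tRNAs, at 0.33, where 1.41% of all genes were raised. Of 12 partners of tRNA charging, rapamycin lowered 5. It lowered 18.0% of all genes and 31.5% of those as bright as the cytosolic enzymes. Among the 5 were Eef1e1, a further scaffold protein of the multisynthetase complex (-0.74), and Qrsl1 (-0.54). The alanine editing factor Aarsd1 (-0.49) and Trnt1, which adds the CCA end of tRNAs (-0.37), also fell. PGC-1alpha lowered 1 of the 12, Prorsd1, at -0.40, where 0.594% of all genes were lowered.

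The 16 measured factors of mitochondrial transcription and translation had a median of -0.26 after rapamycin, and none was raised. Rapamycin lowered 9 of them, where 18.0% of all genes were lowered. The 9 included the elongation factors Gfm1 (-0.66) and Tsfm (-0.41), the RNA-binding protein Lrpprc (-0.52) and Mtres1 (-0.41), which rescues stalled mitochondrial ribosomes. PGC-1alpha raised Mtres1 (0.44), Gfm1 (0.39) and the elongation factor Tufm (0.37), and lowered the transcription factor Tfb2m (-0.55). Of all genes, PGC-1alpha raised 1.41% and lowered 0.594%.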

How the data were processed

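RNA of 12 cultures was hybridised to Affymetrix MOE430 v2 arrays, 3 a group. The submitters describe them as biological replicates, and the p-values measure the spread between them. The deposited table holds linear intensity values, made by the authors with RMA of BioConductor 1.2 per the labels, in 1 run for rapamycin and vehicle and another for PGC-1alpha and GFP. Levels are therefore compared within an experiment only. No detection calls were used.

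The log2 of each intensity was taken without a pseudocount. Each experiment was fitted on its own 6 arrays with lmFit and eBayes of limma 3.58.1 in R 4.3.3, with Benjamini-Hochberg adjustment across 45037 probe sets after 64 Affymetrix control probe sets were left out. The difference of changes came from a fit of 4 group means over 12 arrays. A negative change means lower after rapamycin or with PGC-1alpha. The platform annotation gave 34945 probe sets 1 symbol, 932 several and 9160 none; only those with 1 were named, and 24 of 38 members had more than 1 probe set. Values in every array are given for the 10 members with the largest changes past the threshold in each experiment, for members that passed in the opposite direction and for the enzymes of the amino acids described pair by pair; Gars, Eprs and Vars in the virus experiment were chosen after their values were seen. Other lists are named by their 4 largest changes. The members and lists were chosen with earlier results of these data known, and no test was made over a list. The fit was tested on simulated data. Python 3.11.15 drew the figures and searched the promoters.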

Additional observations from a re-analysis of the deposited data

How the results depend on the processing

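Rapamycin lowered 26 members and raised 1. Of 16 alternative settings, 23 of the 26 lowered calls held in all, as did the rise of Qars. Pars2 was lost without 1 array in 3 cases, Fars2 without vehicle replicate 2 and with the mean of all probe sets of a gene, and Farsa with that mean (-0.07). Spike scaling gave 34 lowered (19 cytosolic, 13 mitochondrial and both scaffolds), since 8 of the 11 members called in neither direction gained a call, with median changes of -0.69 (cytosolic) and -0.30 (mitochondrial), where all genes moved to -0.20. Leaving out 1 array gave 25 to 26 lowered and medians of -0.54 to -0.46 (cytosolic) and -0.14 to -0.08 (mitochondrial). The PGC-1alpha experiment was less stable. Its count raised ran from 0 to 9 when 1 array was left out, with 9 without GFP replicate 3. It was 0 with log2 of the intensity plus 16, 4 among probe sets with a mean log2 of at least 6, 2 with quantile normalization over 12 arrays, 0 with spike scaling, 2 with a trended and robust prior and 3 in 1 fit over 12 arrays. Its medians were 0.01 to 0.11 (cytosolic) and 0.04 to 0.06 (mitochondrial) without 1 array, and 0.22 and 0.21 with spike scaling, where all genes moved to 0.18. In the test between the experiments, spike scaling gave 34 members that differed, all with the lower change after rapamycin, and Qars was no longer called. The median difference of all genes moved to -0.38 there. Qars was also not called in that test when probe sets with suffixes marking possible cross-hybridization were left out. The cause of these shifts was not tested. No direction of a called gene was reversed. With each group's mean removed, same-numbered arrays correlated at -0.05, 0.07 and 0.00 in the drug experiment and at -0.13, 0.23 and -0.01 in the virus experiment. Arrays with different numbers correlated at -0.14 to 0.15 and at -0.22 to 0.21. With 3 arrays a group these values do not settle whether the replicate numbers pair the arrays. With the replicate block, 26 members were lowered and 1 raised by rapamycin, 1 was raised by PGC-1alpha, and 27 instead of 28 differed between the experiments.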
